A study of Mus musculus with 12 samples.

Results

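The genes described here are the nuclear-encoded genes of mitochondrial respiration: every row of the gene count table whose symbol begins with Nduf, with Sdh followed by a, b, c or d, with Uqcr, with Cox4, Cox5, Cox6, Cox7 or Cox8, or with Atp5. This rule found 92 of 15774 rows, and all 92 passed the filter on low counts that left 15635 rows for testing. By symbol they fall into 36 subunits and 8 assembly factors of complex I, 4 subunits and 2 assembly factors of complex II, 8 genes of complex III, 18 of complex IV and 16 of complex V. Ndufa4 and Ndufa4l2 are counted with complex IV, and Atp5sl with the assembly factors of complex I, in keeping with what is known of their proteins. Of the 13 subunits that the mitochondrial genome itself encodes, 0 were found in the count table by their mt- symbols, so they were not analysed here.

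The series holds 12 RNA sequencing libraries of cortical astrocytes sorted by flow cytometry from mice of the C57BL/6J strain, all wild-type. In the stroke groups the distal middle cerebral artery was tied permanently and both common carotid arteries were closed for 7 min, and cells were taken on day 1, 3, 7, 21 or 60. The sham group had a lesion of the skull surface and no tied artery. Each of the 6 groups has 2 libraries. The labels give no age, no sort marker, no day for the sham group, and do not say whether a library came from 1 animal or a pool, so p-values measure the spread between these libraries, which may be technical.

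Replicate 1 of each group held 13006008 to 16575045 counts and replicate 2 held 97056596 to 156128922. The marker content of the sorted cells changed across the groups. The 12 astrocyte markers took 0.677% to 0.851% of counts in sham, and Aldoc alone made up the larger part of this share. They took 0.465% to 1.38% on day 1, where 2 were higher and 0 lower. On day 7 they took 0.107% to 0.194%, with 2 higher and 7 lower. The 15 neuron markers took 0.988% to 1.16% in sham and between 0.0185% and 0.210% in the 10 stroke libraries. Oligodendrocyte markers (10 genes) took 0.914% to 1.05% in sham, 0.134% to 0.211% on day 1 and 0.0453% to 0.0959% on day 7. Fibroblast markers (12 genes) took 0.0164% to 0.0205% in sham, 0.272% to 0.349% on day 1, 8.81% to 20.6% on day 7 and 2.01% to 2.69% on day 60. Microglia markers (12 genes) took 0.0812% to 0.0878% in sham, 0.0488% to 0.0565% on day 1, 0.398% to 0.842% on day 7 and 0.0806% to 0.128% on day 60. Leukocyte markers (12 genes) took 0.00296% to 0.0239% in sham and 0.390% to 0.405% on day 7, and endothelial markers (11 genes) took 0.155% to 0.270% in sham, 0.656% to 0.917% on day 1 and 0.0620% to 0.0713% on day 7. Of the leukocyte markers Cd3e, Cd8a and Nkg7 were at 0 in sham, Cd3e on day 1 and Cd8a on day 3, and no marker of the other 6 lists was at 0 in any group. Neuron and oligodendrocyte shares were below and fibroblast shares above the sham range on all 5 days, and the astrocyte, microglia, leukocyte and endothelial shares left it on some days only. The part of these shares in the results was not tested; in bulk samples, fewer cells of a type and less RNA per cell cannot be told apart.

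The respiratory chain sits in the inner mitochondrial membrane. Complex I takes electrons from NADH and complex II from succinate, complex III passes them from ubiquinol to cytochrome c, and complex IV, cytochrome c oxidase, hands them to oxygen. Complexes I, III and IV pump protons, and complex V, the ATP synthase, uses the returning protons to make ATP. Large catalytic core subunits are joined in these complexes by many small accessory subunits, and assembly factors help build them without staying in the finished enzyme. Astrocytes are known for active glycolysis beside respiration, and NRF1, GABPA of the ETS family, YY1 and the estrogen-related receptors with their coactivators of the PGC-1 family are known regulators of these genes.

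NRF1 binds a palindrome-like site in many promoters of respiration genes, and its letters were searched in the RefSeq promoter windows (GRCm38.p6, 250 bases before to 50 after the start site), which were matched for 77 of the 92 genes. The motif searched, GCGCA followed by any base and GCGC, on either strand, was found in 19 of the 77 windows, which is 24.7%, against 5.19% of all 27025 genes with a window and 9.72% of the 11795 such genes that the files hold. The stretches below lie before the start site, hold a match, shown in capitals, and contain no annotated exon. They are shown because the same letters precede Cox6a1, which fell at every time, Sdha, which fell far less, and Ndufaf4, which was called at no time without the replicate block. They are written 5′ to 3′ on the gene's own strand.
Cox6a1, chr5:115348982-115349129, minus strand: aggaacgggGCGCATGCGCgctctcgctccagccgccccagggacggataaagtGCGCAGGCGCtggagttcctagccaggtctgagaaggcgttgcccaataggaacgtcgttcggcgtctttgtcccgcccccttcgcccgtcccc
Sdha, chr13:74350281-74350308, minus strand: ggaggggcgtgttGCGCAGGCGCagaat
Ndufaf4, chr4:24897833-24898082, plus strand: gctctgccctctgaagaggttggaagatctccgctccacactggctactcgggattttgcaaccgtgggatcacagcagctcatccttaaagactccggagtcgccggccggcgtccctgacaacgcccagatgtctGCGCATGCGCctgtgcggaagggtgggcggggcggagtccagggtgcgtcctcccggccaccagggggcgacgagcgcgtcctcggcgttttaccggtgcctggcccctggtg

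The 19 genes with a match had a median log2 fold change of -1.82 on day 7 and the 58 without one -2.41, and 13 of 19 and 49 of 58 were called lower. The other motifs searched on both strands were AANATGGCG for YY1, found in 12 of 77 windows (15.6%, against 2.76% of all genes and 4.94% of those in the files), CCGGAAG for ETS factors, in 19 (24.7% against 9.93% and 16.7%), and AAGGTCA, the core element of estrogen-related receptors, in 8 (10.4% against 5.38% and 4.16%). None of these motifs contains another. A match is a description of the letters in a window and not of binding.

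Respiration transcripts fell after stroke, already on day 1 and most on days 7 and 21, and their summed level was still 34.3% of sham on day 60. The level is given in CPM, a gene's counts per 1000000 counts of its library, with the library total scaled by its TMM factor. Summed over the 92 genes it was 27889 and 27456 CPM in the sham libraries. It was 8554 and 15244 on day 1, and 12173 and 16522 on day 3. It was 6069 and 7545 on day 7, 6037 and 7518 on day 21, and 9920 and 9067 on day 60. Every stroke library lay below both sham libraries, and the day 1 pair was the widest apart. Relative to the sham mean of 27672 CPM ± 306 (SD, n = 2), the group means stood at 43.0% on day 1, 51.8% on day 3, 24.6% on day 7, 24.5% on day 21 and 34.3% on day 60.

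The fall was steepest in complex IV. Its summed level was 9883 and 9264 CPM in the sham libraries, 976 and 2758 on day 1, 2657 and 2858 on day 3, and 754 and 771 on day 7. It was 833 and 1063 on day 21 and 1870 and 1210 on day 60. The day 7 mean, 762 CPM ± 12.2 (SD, n = 2), was 12.6-fold below the sham mean, 9574 CPM ± 438 (SD, n = 2). Complex I subunits fell 4.58-fold by day 7 (to 21.8% of sham), complex III 2.93-fold (34.1%), complex V 2.39-fold (41.9%) and complex II subunits 1.98-fold (50.5%). Sums give abundant genes the most weight, and medians over genes ordered complexes I and III the other way. The median log2 fold change on day 7 was -3.42 for complex IV, -2.84 for complex III and -2.46 for complex I subunits. It was -1.79 for complex V and -0.73 for complex II subunits. The complex III median lay below that of complex I subunits at every time. No test was made of a sum over genes.

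**Figure D1:**
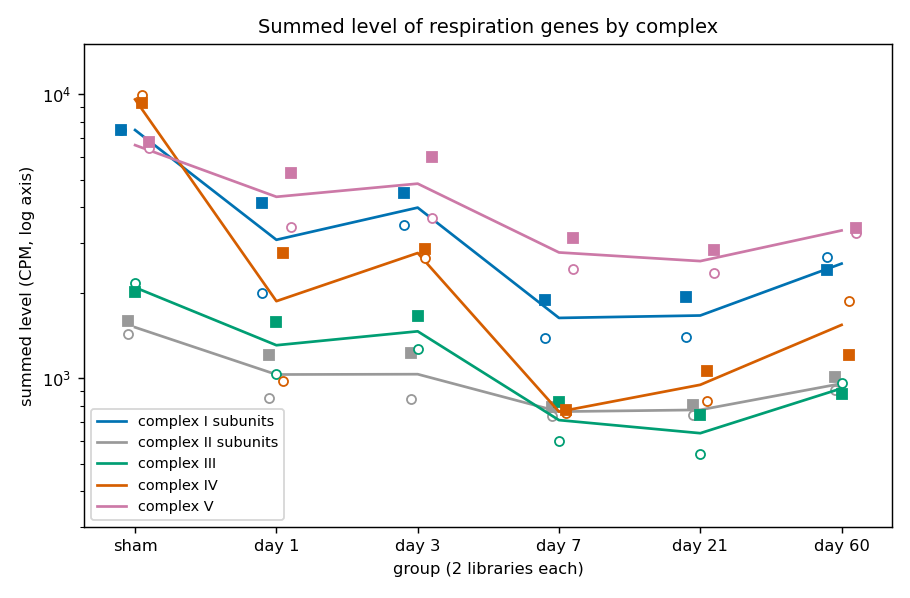
Summed level of the genes of each complex in CPM on a log axis, by group. Open circles are replicate 1, filled squares replicate 2, lines join the group means; complex IV was the most abundant in sham (9574 CPM) and on day 7 (762 CPM) lay at the level of the 4 complex II subunits (763 CPM).

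The make-up of the respiration counts shifted with it. Complex IV took 35.4% and 33.7% of all respiration counts in the sham libraries and between 10.2% and 21.8% in the 10 stroke libraries. Complex V took 23.1% and 24.7% in sham and 30.2% to 41.3% after stroke, and complex II subunits 5.12% and 5.80% against 6.94% to 12.3%. Complex III took 7.77% and 7.30% in sham and 8.96% to 12.1% after stroke. For complexes II, III, IV and V no stroke library fell within the sham range. Complex I subunits took 26.8% and 27.2% in sham and 22.8% to 28.5% after stroke, with overlap.

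**Figure D2:**
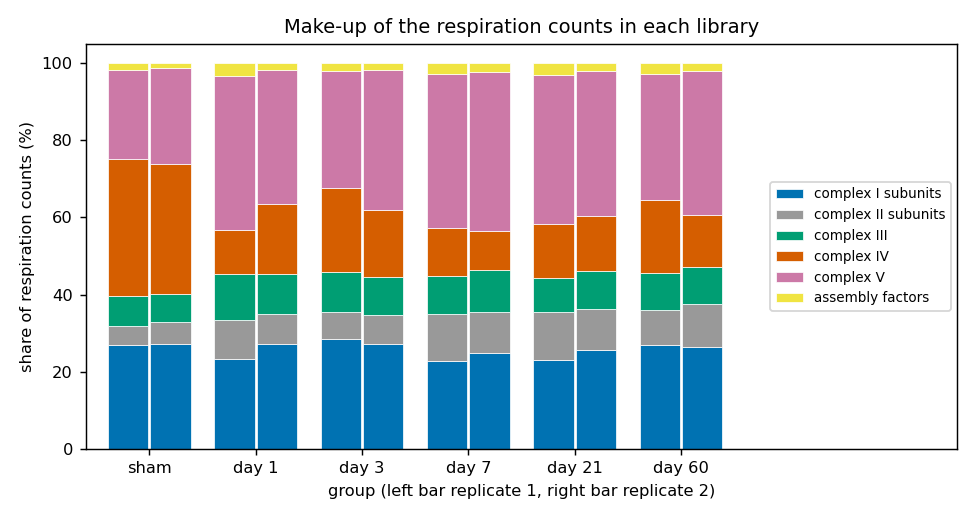
Share of all respiration counts taken by each complex, in percent, with 1 stacked bar per library (left replicate 1, right replicate 2). The complex IV part shrank from a mean of 34.6% in sham to 11.3% on day 7, while that of complex V grew from 23.9% to 40.6%.

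Gene by gene, log2 fold changes with their standard errors and Benjamini-Hochberg adjusted p-values came from edgeR's quasi-likelihood test over all 15635 genes, and a gene is called at an adjusted p under 0.05. The comparisons with sham share the same 2 sham libraries and are not independent. On day 1, 50 of 92 respiration genes were lower and 1 higher, where 13.9% of all genes were called lower and 16.7% higher. On day 3 there were 13 lower and 1 higher (14.2% and 18% of all genes). On day 7, 69 were lower and 1 higher (19.8% and 23.2%), on day 21, 68 and 0 (15.4% and 17.8%), and on day 60, 59 and 0 (14.8% and 16.8%). The share of respiration genes called lower was thus 14.1% on day 3, close to that of all genes in this fit, and 54.3% to 75.0% at the other times. On day 3, 28 were lower with the replicate number as a block (19.1% of all genes), 24 by DESeq2 (19.3%) and 24 with the length trend described below (14.6%).

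The median log2 fold change of the 92 genes was -1.39 on day 1, -0.75 on day 3, -2.35 on day 7, -2.37 on day 21 and -1.78 on day 60, where that of all genes lay between 0.01 and 0.16. Both libraries lay below both sham libraries for 70, 58, 85, 87 and 82 of the 92 genes at the successive times, against 33.2%, 31.2%, 36%, 35.4% and 34.3% of all genes. Over the 5 comparisons 72 genes were lower at some time, 19 were called at none and 1, Ndufa4l2, was higher. With the replicate number as a block, 12 of these 19 were called at some time. A single edgeR test of any difference between the 6 groups called 63 of 92, against 42.7% of all genes.

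These counts depended on single libraries. The day 1 count of 51 changed genes was 18 without replicate 1 of day 1, 29 without replicate 1 of sham and 32 without replicate 2 of sham. The day 3 count of 14 was 2 without replicate 1 of day 3, 5 without replicate 2 of day 3, 3 and 4 without replicates 1 and 2 of sham, and 25 without either day 1 library; with the replicate number as a block it was 29. The day 60 count of 59 was 27 without replicate 2 of day 60. The day 7 and day 21 counts of 70 and 68 kept to 55 to 75 and 51 to 74 whichever library was left out.

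Of neighbouring times, day 7 differed from day 3. There 37 of 92 genes were lower on day 7 and 0 higher (3.22% and 3.06% of all genes), with a median log2 difference of -1.66, and 91 of 92 fitted differences were negative. That median was -1.49 without replicate 1 of day 7, -1.81 without replicate 2 of day 7 and -1.73 without replicate 1 of day 3. In these fits fewer of all genes were called as well. With the replicate block 8.97% of all genes were lower. The 37 were 16 of 36 complex I subunits, 4 of 8 complex III genes, 10 of 18 complex IV genes and 7 of 16 complex V genes. With the replicate block the count was 56, but it was 0 without either day 7 library, 1 without replicate 1 of day 3, 21 without replicate 2 of day 3 and 22 without replicate 1 of day 21.

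Between day 1 and day 3 the edgeR test called 0 of 92 (3.57% of all genes), with 26 at an unadjusted p under 0.05 (2522 of all 15635 genes). The replicate block called 7 of 92 and 1313 of all genes, and DESeq2 called 9 of 92 and 1426 of all genes. The day 3 mean was the higher in 77 of 92 genes, and the median log2 difference was 0.68. That median was 0.29 without replicate 1 of day 1 and 1.28 without replicate 2 of day 1. Between day 7 and day 21, 0 of 92 were called (0.441% of all genes), or 1 with the block, and between day 21 and day 60, 0 of 92 (0% of all genes). The lowest of the 6 group means fell on day 7 for 45 genes and on day 21 for 42, and 88 genes had a higher mean on day 60 than on day 21. Sham was the highest group for 76 genes.

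**Figure D3:**
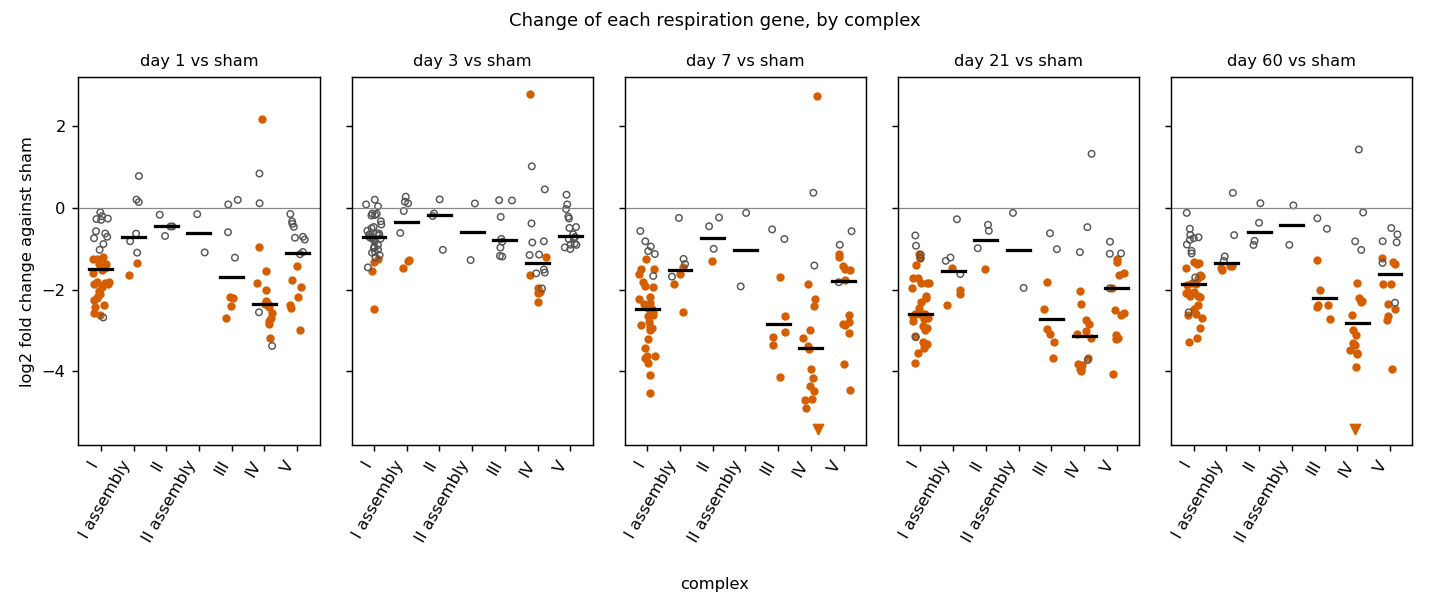
Log2 fold change against sham of each of the 92 genes at the 5 times, by complex and assembly factors. Filled points are called by edgeR at an adjusted p under 0.05, open points are not, bars are medians, and the triangle at the lower edge is Cox7b2, which had 0 counts in both libraries on days 7 and 60; complex IV has the lowest median at every time, and the high filled point is Ndufa4l2.

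Transcript length moved with these changes. The respiration genes are short, with a median annotated transcript of 800.5 bases against 2797 for all genes tested. Across the 92 genes, Spearman's correlation of the log2 fold change with transcript length was 0.69 on day 1, 0.34 on day 3, 0.68 on day 7, 0.71 on day 21 and 0.71 on day 60. This is a description across genes that share libraries, so no p is given. Among the 26 respiration genes under 600 bases the median was -3.20 on day 7 and 24 were lower, while the 213 other genes of that length had a median of -1.82 and 39.9% were lower. From 1500 to 2000 bases, the medians were -0.97 for 10 respiration genes and 0.15 for 1981 others. In all 7 length classes, on day 1 and on day 7, the respiration genes' median lay below that of the other genes except in the class over 3000 bases on day 1, which holds 2 of them.

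Cytosolic ribosomal protein genes, which are also short and abundant (90 genes), had medians of -0.86 on day 1, -0.10 on day 3, -2.35 on day 7, -2.26 on day 21 and -2.03 on day 60, with 21, 3, 59, 60 and 47 lower. The lower ones made 23.3%, 3.33%, 65.6%, 66.7% and 52.2% of this list, against 13.9%, 14.2%, 19.8%, 15.4% and 14.8% of all genes. Transcripts under 800 bases took 5.78% and 6.09% of all counts in the sham libraries and 1.53% and 1.23% on day 7. With a length trend, fitted over the other genes in each library, taken out as an offset (chosen after the data were seen), 38, 24, 59, 58 and 44 respiration genes were lower at the successive times. The medians were then -0.95, -0.82, -1.32, -1.38 and -1.12. On day 7, complex IV stood at -2.36, complex I subunits at -1.26, complex III at -1.26, complex V at -1.27 and complex II subunits at -0.61. The difference of day 7 from day 3 was called for 4 genes under this offset, where 1.8% of all genes were lower.

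**Figure D4:**
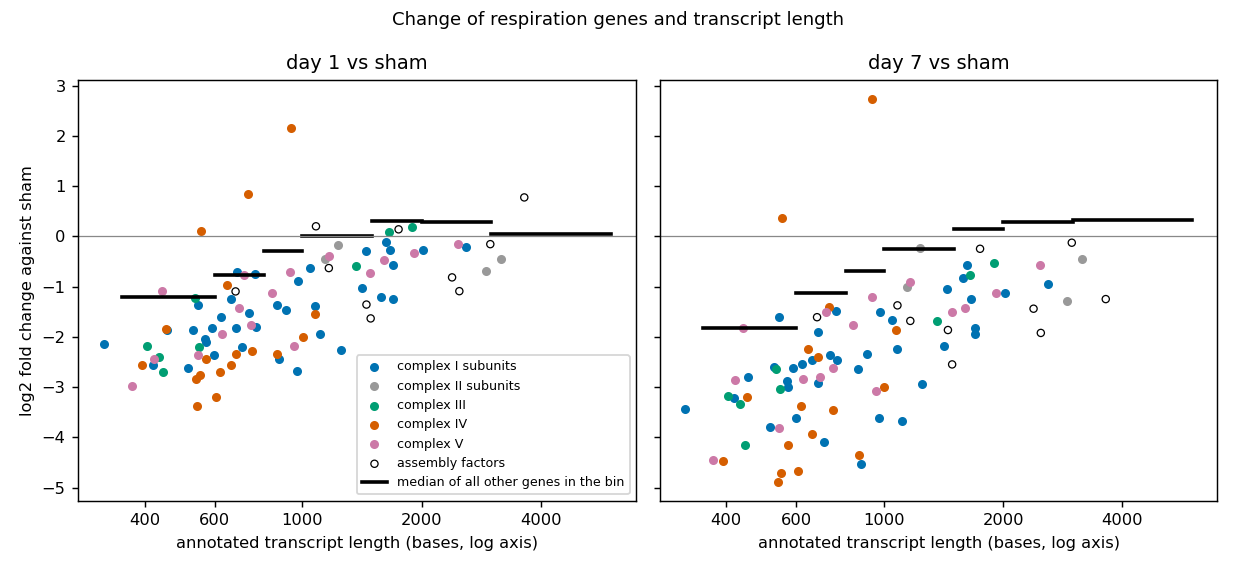
Log2 fold change of the respiration genes against annotated transcript length (log axis), on day 1 and day 7. Colours mark the complexes, open circles the assembly factors, and black bars the median of all other genes in the same length class (-1.82 under 600 bases on day 7); most points lie below the bar of their class, and Cox7b2 (0 counts on day 7) is not drawn.

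In complex I, the small accessory subunits fell and most of the 7 core subunits, which hold the flavin and the iron-sulfur clusters, moved less. Of 29 accessory subunits, 24, 4, 26, 26 and 25 were lower on days 1, 3, 7, 21 and 60, against 0, 0, 4, 5 and 0 of the 7 core subunits. Median transcripts were 704 bases for the accessory and 1623 for the core subunits, and the part of length in this difference was not tested. Without replicate 1 of day 1, 7 complex I subunits were lower on day 1 in place of 24, without replicate 1 of sham 11 and without replicate 2 of sham 13, and without replicate 2 of day 60, 8 in place of 25 were lower on day 60.

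Ndufa5 (chr6:24518666-24528013, GRCm38), an accessory subunit of the matrix arm, had the largest fall of complex I on day 7. Its level was 214 and 243 CPM in sham, 19.2 and 65.0 on day 1, 81.4 and 84.9 on day 3, 8.26 and 11.5 on day 7, 12.3 and 20.6 on day 21, and 27.1 and 23.0 on day 60. No stroke library reached the sham libraries, and day 7 was the lowest pair. The log2 fold change was -4.53 ± 0.58 (SE) on day 7 (adjusted p = 0.000297) and -3.19 ± 0.55 on day 60 (adjusted p = 0.00242). On day 3 it was -1.46 ± 0.51, with an adjusted p of 0.0528, or 0.0162 with the replicate block.

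Ndufb9 (chr15:58933756-58939488), an accessory subunit of the membrane arm, was abundant in sham at 1309 and 1143 CPM. It stood at 81.3 and 454 CPM on day 1, 148 and 293 on day 3, 64.3 and 79.6 on day 7, 110 and 141 on day 21, and 238 and 204 on day 60. Sham and stroke did not overlap at any time, and the day 1 libraries were far apart. It was lower at all 5 times, with log2 fold changes of -2.20 ± 0.67 on day 1 (adjusted p = 0.0323, or 0.102 without replicate 1 of sham), -2.47 ± 0.68 on day 3 (adjusted p = 0.0195, or 0.119 without replicate 1 of day 3) and -4.09 ± 0.73 on day 7 (adjusted p = 0.00152). The calls on days 21 and 60 reached adjusted p of 0.0553 without replicate 1 of day 21 and 0.110 without replicate 2 of day 60.

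Exons of Ndufb9 and Ndufb8 overlap another gene on the same strand. The part of this overlap in their counts was not tested. Ndufb8, another membrane arm subunit, was also lower at all 5 times, from 563 and 519 CPM in sham to 62.1 and 81.4 on day 7. Its day 3 call (adjusted p = 0.031) was lost when any of 4 libraries was left out, with an adjusted p of up to 0.149 without replicate 1 of day 3. Its calls on days 1 and 60 reached 0.0782 without replicate 1 of day 1 and 0.0691 without replicate 2 of day 60. Ndufa3 and Ndufa1, small subunits with transcripts of 515 and 419 bases, fell by 3.79 ± 0.55 (adjusted p = 0.000516) and 3.21 ± 0.46 (adjusted p = 0.000514) on the log2 scale on day 7. On day 3 Ndufa3 was at 115 and 84.6 CPM, between its sham libraries (165 and 229) and those of day 7, of which replicate 2 was at 16.5, and was lower on day 7 than on day 3 (log2 difference -2.80 ± 0.52, adjusted p = 0.0189).

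The 4 core subunits lower on day 7, named after their values were seen, were Ndufs7 (-1.49 ± 0.45), Ndufs8 (-1.50 ± 0.42), Ndufv1 (-1.24 ± 0.37) and Ndufv2 (-1.82 ± 0.53).

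Of the 8 assembly factors of complex I, 2, 3, 4, 4 and 4 were lower at the successive times. The count on days 7 and 21 was 7 with the replicate block. On day 7 it was 7 without either day 1 library and 2 without replicate 1 of sham, and on day 60 it was 0 without replicate 1 of sham or replicate 2 of day 60. Ndufaf1 and Ndufaf3, early assembly factors with transcripts of 1451 and 1487 bases, were lower at all 5 times. Exons of Ndufaf3 overlap Impdh2 on the opposite strand, and the strand setting of the counting is not given in the sources used here. Ndufaf3 (chr9:108565537-108567434) was at 93.2 and 78.6 CPM in sham, 19.9 and 35.4 on day 1, 32.9 and 38.3 on day 3, 13.7 and 15.6 on day 7, 16.9 and 23.1 on day 21, and 37.1 and 27.2 on day 60. All stroke libraries lay below sham, and the fall was -2.55 ± 0.37 on day 7 (adjusted p = 0.000554) and -1.42 ± 0.36 on day 60 (adjusted p = 0.0149, or 0.0923 without replicate 2 of day 60). Its day 3 call was lost when any of 4 libraries was left out (adjusted p up to 0.110 without replicate 1 of sham), and its day 1 call reached 0.0577 without replicate 1 of day 1. For Ndufaf1 the adjusted p reached 0.123, 0.124 and 0.0858 on days 1, 3 and 60 without replicate 1 of day 1, replicate 1 of day 3 and replicate 2 of day 60.

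Atp5sl, an assembly factor of the distal membrane arm despite its name, was lower from day 3 on, by 1.43 to 1.47 on the log2 scale. Each of these 4 calls was lost without 1 or 2 of the libraries. The adjusted p reached 0.0629, 0.0517 and 0.0733 on days 3, 7 and 60 without replicate 1 of sham, and 0.0652 on day 21 without replicate 2 of day 21. On day 1 it was -0.82 ± 0.32 (adjusted p = 0.0776, or 0.0343 with the block). Ndufaf2 was lower on days 7, 21 and 60, but at none of them with the length trend as an offset (adjusted p = 0.462, 0.0525 and 0.181). Its calls on days 7 and 60 also reached 0.0953 without replicate 1 of day 7 and 0.131 without replicate 1 of sham. On day 3 it was at 18.0 and 19.0 CPM, within its sham range of 16.1 to 23.0. Ndufaf4, whose upstream letters are printed above, was at -1.25 ± 0.51 on day 7 (adjusted p = 0.0698, or 0.0038 with the block). With the block it was also lower on days 21 and 60 and higher on day 1 (adjusted p = 0.0355).

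Complex II, succinate dehydrogenase, is also an enzyme of the citric acid cycle and the only respiratory complex with no subunit from the mitochondrial genome. Its 4 subunits had the smallest medians of the 5 complexes, -0.46, -0.17, -0.73, -0.78 and -0.59 at the successive times, and 0, 0, 1, 1 and 0 were lower. With the replicate block 0, 1, 2, 2 and 2 were lower. The calls on days 7 and 21 were each lost when any library of sham or of that day was left out, and without either day 1 library 2 were lower on day 7. Their median transcript, 2065.5 bases, was the longest among the complexes.

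Sdha (chr13:74322254-74350280), the flavoprotein that oxidises succinate, was at 736 and 996 CPM in sham, 407 and 668 on day 1, 308 and 542 on day 3, 323 and 383 on day 7, 408 and 465 on day 21, and 373 and 617 on day 60. All stroke libraries lay below sham, and within each group replicate 2 was above replicate 1. The log2 fold change was -1.29 ± 0.43 on day 7 (adjusted p = 0.0336, or 0.162 without replicate 1 of day 7). On days 3, 21 and 60 it was -1.03, -0.99 and -0.81, with adjusted p of 0.092, 0.101 and 0.175, or 0.00914, 0.0137 and 0.0279 with the replicate block.

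Sdhb, the iron-sulfur subunit, was at 317 and 361 CPM in sham and 93.1 and 146 on day 21, a log2 fold change of -1.50 ± 0.43 (adjusted p = 0.0227, or 0.142 without replicate 1 of day 21). On day 7, with 137 and 201 CPM, its adjusted p was 0.0802, or 0.00845 with the block. The membrane anchors moved least. Sdhc was at 185 and 131 CPM in sham and 129 and 102 on day 7 (log2 fold change -0.45 ± 0.34, adjusted p = 0.302). Sdhd was at 190 and 105 in sham and 144 and 106 on day 7 (-0.24 ± 0.43, adjusted p = 0.679), with overlap of the groups at all times. Neither of the 2 assembly factors, Sdhaf1 and Sdhaf2, was called at any time. With the block Sdhaf1 was lower at all 5 times, with an adjusted p of 0.00129 on day 7, and Sdhaf2 at none.

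Complex III divided in the same way by size. Its 5 small subunits, with a median transcript of 445 bases, were lower in 4, 0, 5, 5 and 5 cases at the successive times, and the 3 larger ones, the 2 core proteins and the Rieske iron-sulfur protein Uqcrfs1, in 0, 0, 1, 1 and 1. The 1 called was Uqcrfs1, named after its values were seen. The day 1 count for the complex, 4, was 2 without replicate 1 of day 1, and the day 60 count, 6, was 3 without replicate 2 of day 60.

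Uqcr11 (chr10:80402997-80406830), a small subunit bound near the Rieske protein, was at 261 and 174 CPM in sham. It was at 24.6 and 42.6 on day 1, 131 and 61.6 on day 3, 14.0 and 10.6 on day 7, 19.0 and 15.0 on day 21, and 51.7 and 15.1 on day 60. Day 3 was the stroke group nearest to sham, though still below it, and day 7 the lowest. The log2 fold change was -2.69 ± 0.61 on day 1 (adjusted p = 0.0101, or 0.074 without replicate 1 of day 1), -1.18 ± 0.58 on day 3 (adjusted p = 0.148) and -4.14 ± 0.66 on day 7 (adjusted p = 0.000815).

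Uqcr10, Uqcrq and Uqcrh, further small subunits, also had their highest stroke mean on day 3, with log2 fold changes of -3.34, -3.17 and -3.03 on day 7. The core protein Uqcrc1 (chr9:108936633-108949623) was at 682 and 758 CPM in sham, 593 and 932 on day 1, 409 and 825 on day 3, 333 and 516 on day 7, 277 and 437 on day 21, and 508 and 502 on day 60. From day 7 on both libraries lay below sham, and on days 1 and 3 the groups overlapped. Its log2 fold change was 0.08 ± 0.44 on day 1 and -0.76 ± 0.45 on day 7 (adjusted p = 0.191, or 0.0418 with the replicate block). Uqcrc2, the other core protein, was at 0.19 ± 0.49 on day 1 and -0.53 ± 0.49 on day 7 (adjusted p = 0.409).

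In complex IV all 10 general subunits, which surround the mitochondrially encoded core, were lower on days 1, 7, 21 and 60, and 6 of 10 on day 3. Of the 12 genes called lower at all 5 times, 6 belong to them: Cox4i1, Cox6a1, Cox6b1, Cox6c, Cox7a2 and Cox8a. The other 6 are Ndufa8, Ndufb8, Ndufb9, Ndufb10, Ndufaf1 and Ndufaf3, all of complex I, of which Ndufa8 and Ndufb10 were named after their values were seen. For all 18 genes the counts lower were 13, 6, 15, 14 and 14. The day 1 count was 6 without replicate 1 of day 1 and 8 without replicate 2 of sham. The day 3 count was 2 without either sham library and 1 without either day 3 library, and 10 with the replicate block.

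The general subunits were also the most abundant for their length, with a sham median of 736 CPM per kilobase of transcript, against 178 for the 92 genes and 5.10 for all genes tested. Over the 92 genes, Spearman's correlation of the log2 fold change with the sham CPM lay between -0.28 and 0.01 at the 5 times.

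Cox4i1 (chr8:120668222-120674207), the largest nuclear-encoded subunit and a regulatory one, was the most abundant of them, at 2599 and 2536 CPM in sham. It was at 210 and 847 on day 1, 504 and 701 on day 3, 228 and 239 on day 7, 249 and 359 on day 21, and 641 and 419 on day 60. No stroke library came near the sham level, and the day 7 pair was the closest together. The log2 fold change was -2.28 ± 0.59 on day 1 (adjusted p = 0.0166, or 0.059 without replicate 1 of sham), -3.46 ± 0.62 on day 7 (adjusted p = 0.00159) and -2.28 ± 0.59 on day 60 (adjusted p = 0.0163, or 0.107 without replicate 2 of day 60).

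Cox6a1 (chr5:115345642-115348981), whose upstream stretch is printed above, was at 2100 and 1998 CPM in sham. It stood at 166 and 593 on day 1, 487 and 504 on day 3, 110 and 119 on day 7, 132 and 190 on day 21, and 318 and 196 on day 60. The sham libraries were again far above all others. The fall on day 7 was -4.16 ± 0.60 (adjusted p = 0.000512), and the log2 difference of day 7 from day 3 was -2.11 ± 0.55 (adjusted p = 0.0498).

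Cox8a (chr19:7215153-7217616), one of the smallest subunits, went from 2223 and 1648 CPM in sham to 142 and 432 on day 1, 412 and 374 on day 3, 86.9 and 61.6 on day 7, 128 and 142 on day 21, and 285 and 167 on day 60. Cox6c (chr15:35925886-35938246) went from 898 and 752 to 43.7 and 137, 237 and 190, 35.1 and 29.7, 55.1 and 49.0, and 105 and 57.3 at the same times. In both genes all stroke libraries lay below sham with day 7 the lowest. Their log2 fold changes on day 7, -4.70 ± 0.59 (adjusted p = 0.000263) and -4.67 ± 0.58 (adjusted p = 0.000254), were exceeded among genes with counts in every group by that of Cox7c, -4.88 ± 0.68 (adjusted p = 0.000436). Cox7c, at 68.4 and 45.3 CPM in sham and 2.75 and 1.20 on day 7, has a near-identical copy in the genome, and its counts are uncertain.

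Complex IV has pairs of isoform genes that replace each other by tissue or condition. Cox4i2, the isoform known from lung and low oxygen, was at 3.82 and 3.14 CPM in sham, 5.89 and 6.52 on day 1, 7.34 and 2.23 on day 3, and 1.41 and 1.21 on day 7, and was not called at any time (log2 fold change 0.84 ± 0.69 on day 1, adjusted p = 0.382). Both day 1 libraries lay above sham, and those of day 3 on either side of it. Cox6b2, the testis isoform, was at 1.85 and 5.21 CPM in sham and 1.07 and 8.01 on day 7, was not called, and overlapped sham at all 5 times.

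The muscle isoforms Cox6a2 and Cox7a1 went down with their partners. Cox6a2 was at 10.2 and 9.12 CPM in sham and 1.68 and 1.97 on day 7 (fitted change -2.40 ± 0.69 on the log2 scale, adjusted p = 0.0179, or 0.101 without replicate 1 of day 7). With the length trend as an offset it was -1.18 (adjusted p = 0.122). Cox7a1 was at 2.99 and 3.42 in sham and 0.134 and 0.149 on day 7 (-4.47 ± 0.99, adjusted p = 0.00492, or 0.0511 without replicate 2 of day 7). Cox7b2, a testis isoform, had 10 and 282 counts in the sham libraries and 0 in both libraries on day 7 and on day 60. It had 6 and 3 counts on day 1, 2 and 75 on day 3, and 2 and 15 on day 21. Against a floor of 3 counts in each library its mean CPM was at least 14.4-fold lower on day 7 and 17.1-fold lower on day 60. This bound leans on replicate 2, as replicate 1 of sham held only 10 counts. The complex IV medians at those days are the same with Cox7b2 at this bound, -3.42 and -2.81. Cox7a2l, which joins complexes III and IV, was lower on days 1, 7 and 21, by 1.86 ± 0.48 on the log2 scale on day 7 (adjusted p = 0.0109, or 0.0882 without replicate 2 of day 7 and 0.0514 with the length trend).

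Ndufa4 and Ndufa4l2 moved in opposite directions. Ndufa4 (chr6:11900292-11907497), once assigned to complex I and now known as a subunit of complex IV, was at 377 and 477 CPM in sham, 68.0 and 171 on day 1, 152 and 232 on day 3, 34.9 and 58.5 on day 7, 49.5 and 70.7 on day 21, and 87.5 and 96.8 on day 60. Ndufa4l2 (chr10:127514967-127517154), its paralog known as a target of hypoxia-inducible factor, was at 8.60 and 5.59 in sham, 44.8 and 18.5 on day 1, 69.8 and 27.8 on day 3, 55.6 and 38.7 on day 7, 20.9 and 14.4 on day 21, and 28.1 and 10.0 on day 60. Every stroke library was below sham for Ndufa4 and above it for Ndufa4l2, and on day 7 the levels of the pair overlapped.

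Ndufa4 fell by 3.19 ± 0.51 on the log2 scale on day 7 (adjusted p = 0.000872). Ndufa4l2 rose by 2.16 ± 0.65 on day 1 (adjusted p = 0.0301), 2.79 ± 0.66 on day 3 (adjusted p = 0.0107) and 2.74 ± 0.66 on day 7 (adjusted p = 0.00763). These calls were lost when any of 3, 2 and 1 libraries, respectively, was left out, with an adjusted p of up to 0.217 without replicate 1 of day 1, and of 0.0798 and 0.0621 on days 3 and 7 without replicate 2 of sham. On days 21 and 60 it was 1.32 ± 0.63 and 1.43 ± 0.63, with adjusted p of 0.134 and 0.113, or 0.00776 and 0.0102 with the replicate block. Exons of Ndufa4l2 overlap Shmt2 on the opposite strand, and the strand setting of the counting is not given in the sources used here. Shmt2, a mitochondrial enzyme of serine metabolism, rose too, by 1.97 ± 0.35 on day 1 (adjusted p = 0.00407), 1.43 ± 0.35 on day 3 (adjusted p = 0.0117) and 1.17 ± 0.35 on day 7 (adjusted p = 0.0205). Mural cell markers (10 genes, none at 0) took 0.0578% to 0.0679% of counts in sham and 0.188% to 0.208% on day 7, where 3 were called higher and 3 lower. Their summed share lay above the sham range on all 5 days, at 0.0840% to 0.128% on day 3 and 0.121% to 0.127% on day 60. The part of Shmt2 or of these markers in the rise was not tested.

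**Figure D5:**
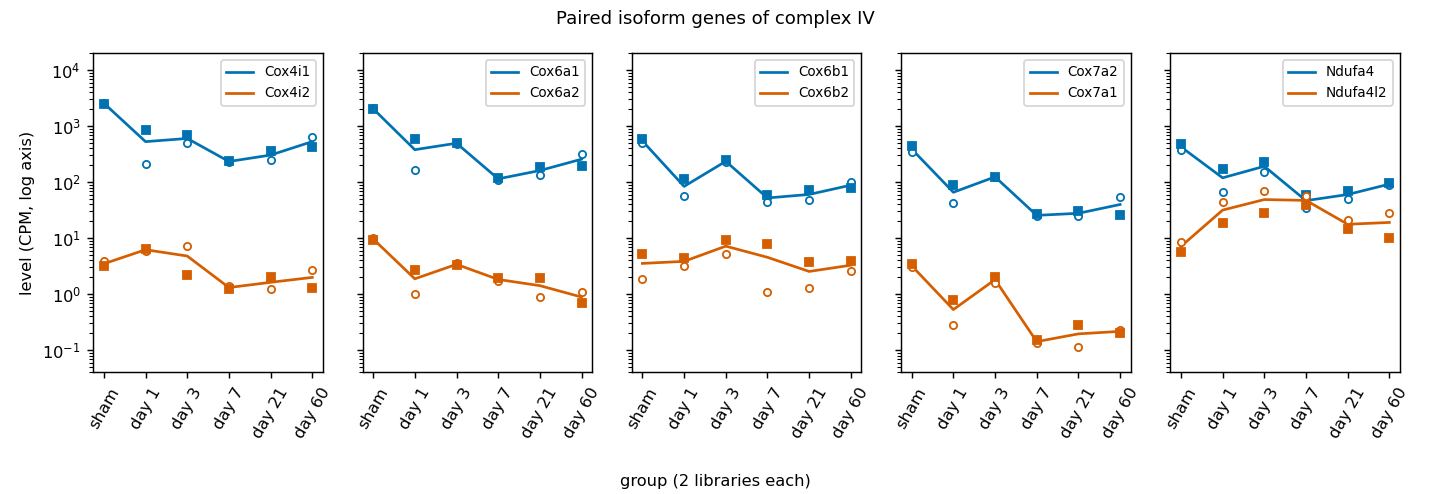
Level in CPM (log axis) of the main gene (blue) and its isoform or paralog (orange) in 5 pairs of complex IV genes, by group. Open circles are replicate 1, filled squares replicate 2 and lines join group means; the blue genes fall to their lowest on day 7, and Ndufa4l2, from 5.59 and 8.60 CPM in sham, reaches 38.7 and 55.6 on day 7, where Ndufa4 is at 34.9 and 58.5.

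In complex V, 7, 0, 13, 12 and 10 of 16 genes were lower at the successive times. The day 1 count was 3 without replicate 1 of day 1, and that of day 7 was 8 without replicate 1 of sham or either day 7 library. That of day 21 was 7 without replicate 1 of day 21, and that of day 60 was 5 without replicate 2 of day 60 and 6 without replicate 1 of sham. Of the 5 genes of the catalytic F1 head, 1, 0, 3, 2 and 1 were lower. Of the 3 small membrane subunits Atp5j2, Atp5k and Atp5l, which shape the dimer in the inner membrane, 3, 0, 3, 3 and 3 were lower.

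Atp5k (chr5:108433244-108434448), subunit e, was at 113 and 146 CPM in sham, 5.89 and 26.7 on day 1, 84.2 and 54.0 on day 3, 3.90 and 7.83 on day 7, 5.82 and 9.42 on day 21, and 8.65 and 8.27 on day 60. Day 3 stood far above the other stroke times but under sham. The log2 fold change was -0.90 ± 0.61 on day 3 (adjusted p = 0.283) and -4.45 ± 0.70 on day 7 (adjusted p = 0.000809), and the log2 difference between these days -3.54 ± 0.67 (adjusted p = 0.0199). Atp5j2, subunit f, went the same way, from 212 and 238 CPM in sham through 144 and 130 on day 3 to 23.3 and 30.1 on day 7 (-3.07 ± 0.44 against sham, adjusted p = 0.000508).

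The F1 subunits alpha and beta, which carry out catalysis, were among the least changed. Atp5b (beta, chr10:128083273-128090391) was at 2265 and 2520 CPM in sham, 1574 and 2226 on day 1, 1207 and 2245 on day 3, 942 and 1261 on day 7, 1036 and 1159 on day 21, and 1244 and 1421 on day 60. All stroke libraries lay below sham, with replicate 2 the higher in each group. It was -1.12 ± 0.41 on day 7 (adjusted p = 0.0477) and -1.12 ± 0.41 on day 21 (adjusted p = 0.0568, or 0.00915 with the block). The day 7 call was lost when any of 8 libraries was left out, with an adjusted p of up to 0.236 without replicate 1 of day 7. Atp5a1, the alpha subunit, was at 1124 and 1250 CPM in sham and 717 and 880 on day 7 (-0.57 ± 0.39, adjusted p = 0.26) and was called at no time, except on day 21 with the replicate block (adjusted p = 0.0302). Atp5e, the epsilon subunit of the same F1 part with a transcript of 421 bases, fell from 165 and 179 to 24.8 and 22.8 (-2.86 ± 0.50, adjusted p = 0.00133), or by 0.86 with the length trend as an offset (adjusted p = 0.0577).

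The c-ring that turns with the proton flow is encoded by 3 genes for the same mature protein. Atp5g3, the most abundant at 359 and 361 CPM in sham, was at 116 and 136 on day 7 (-1.51 ± 0.42, adjusted p = 0.0147, or 0.0926 without replicate 1 of day 7). With the length trend as an offset it was -0.36 (adjusted p = 0.409). Atp5g1 went from 74.8 and 56.2 CPM to 12.3 and 6.59 (-2.80 ± 0.45, adjusted p = 0.00093). Atp5g2 was at 1.08 CPM in replicate 1 of sham and 13.1 in replicate 2, with replicate 2 the higher in every group, and was called at no time, except as lower on days 21 and 60 with the block (adjusted p = 0.0355 and 0.0242). It is among 14 of the 92 genes with a near-identical copy in the genome, as are Atp5g1, Atp5k and Atp5l, so their counts are uncertain.

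Genes around the respiratory chain were measured beside its subunits. Of 37 further genes, cytochrome c, cytochrome c1 and assembly genes outside the rule, 7, 2, 18, 16 and 9 were lower and 0, 0, 1, 0 and 0 higher at the successive times, where 13.9%, 14.2%, 19.8%, 15.4% and 14.8% of all genes were lower, with medians of -0.47 on day 1 and -1.14 on day 7. Cyc1, the cytochrome c1 subunit of complex III, was lower on days 7 (-1.14 ± 0.37, adjusted p = 0.0291) and 21 (-1.42 ± 0.37, adjusted p = 0.0151). Of 27 genes of the citric acid cycle and pyruvate entry, 1, 2, 6, 4 and 4 were lower and 0, 1, 1, 0 and 1 higher. The lower ones made 3.7%, 7.41%, 22.2%, 14.8% and 14.8% of this list, close to or below the shares of all genes just given. The median of the list was -0.81 on day 7. Of 37 genes of import, channels and dynamics of mitochondria, 7, 5, 16, 14 and 12 were lower and 5, 1, 1, 0 and 0 higher, with a median of -0.85 on day 7. The lower ones made 18.9%, 13.5%, 43.2%, 37.8% and 32.4% of this list, against the same shares of all genes.

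Among 17 glycolysis enzymes, 1, 2, 8, 5 and 3 were lower and 3, 2, 2, 2 and 2 higher, with medians of 0.05 on day 1 and -0.97 on day 7. The lower ones made 5.88%, 11.8%, 47.1%, 29.4% and 17.6% of this list, against 13.9%, 14.2%, 19.8%, 15.4% and 14.8% of all genes. Of all genes 16.7%, 18%, 23.2%, 17.8% and 16.8% were higher. Hk2, the hexokinase isoform induced by hypoxia, was at 1.61 and 1.34 CPM in sham and 20.2 and 7.70 on day 7, and was higher at all 5 times (3.24 ± 0.64 on day 7, adjusted p = 0.00263). Ldha, which makes lactate, was also higher at all 5, from 494 and 476 CPM in sham to 1287 and 1292 on day 1 (1.41 ± 0.34, adjusted p = 0.0118). These were the only 2 called higher on day 7, and other enzymes fell. Aldoc went from 5275 and 5248 CPM in sham to 216 and 218 on day 7, and Ldhb from 901 and 614 to 131 and 108. Eno1 and Gapdh were at 0.717 and 0.956 CPM in replicate 1 of sham and 404 and 155 in replicate 2. Replicate 2 was far the higher for both in every group, so their counts are uncertain.

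Of 19 regulators of mitochondrial biogenesis, 4, 5, 5, 1 and 2 were lower at the successive times and 2, 2, 2, 3 and 1 higher. The lower ones made 21.1%, 26.3%, 26.3%, 5.26% and 10.5% of this list, against 13.9%, 14.2%, 19.8%, 15.4% and 14.8% of all genes. The median of the list on day 7 was -0.10. The coactivator gene Ppargc1a was at 34.8 and 43.4 CPM in sham, 4.50 and 14.0 on day 1, 6.45 and 16.8 on day 3, 2.62 and 1.46 on day 7, 13.6 and 11.7 on day 21, and 13.9 and 10.5 on day 60. All stroke libraries lay below sham, with day 7 the lowest. It was lower on day 1 (-2.07 ± 0.61, adjusted p = 0.0287) and day 7 (-4.29 ± 0.68, adjusted p = 0.000848). Ppargc1b was lower on days 1, 3 and 7, and Esrra, an estrogen-related receptor, on days 1, 3 and 60. Nrf1 was at 0.87 ± 0.36 on day 7 (adjusted p = 0.0714), and Tfam, which packs the mitochondrial genome and helps start its transcription, at -0.10 ± 0.31 (adjusted p = 0.813). Pprc1, a coactivator related to PGC-1, was higher on days 1, 3, 7 and 21, from 8.24 and 9.04 CPM in sham to 57.5 and 29.4 on day 1 (2.33 ± 0.42, adjusted p = 0.00412) and 44.1 and 38.9 on day 7. Gabpb1, the partner subunit of GABPA, was higher at all 5 times, from 15.6 and 15.1 CPM in sham to 74.4 and 59.9 on day 1 (2.13 ± 0.30, adjusted p = 0.00175). Polrmt, the mitochondrial RNA polymerase, was called higher on day 21, with 28.3 CPM in replicate 1 and 249.7 in replicate 2.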

How the data were processed

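The authors deposited raw gene counts of RNA from sorted cortical astrocytes (12 libraries, 6 groups of 2), 1 file per library and 1 table, identical in 189288 of 189288 values. Per the submitters' processing notes, reads were handled with Bowtie2 (version 2.3.4.2) and HTSeq (version 0.6.1) on the mm10 build. Annotation, strand setting and handling of reads with several matches are not given in the sources used here.

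Counts were fitted in R 4.3.3 with edgeR 4.0.16 (quasi-likelihood, TMM factors 0.689 to 1.22, filterByExpr with minimum count 10, all 12 libraries in 1 fit with 6 group terms, 6 residual degrees of freedom). P-values were adjusted over 15635 genes. Levels are TMM-scaled CPM. The fit was tested on simulated data. DESeq2 1.42.0, other scalings, no filter, the replicate block, only the compared groups, leave-one-out and a length trend were alternatives.

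Replicate numbers pair the libraries: differences between replicates correlated at 0.319 to 0.713 in 15 of 15 pairs of groups. Why is not stated in the labels. Replicate 2 is the deeper throughout.

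The members and lists were chosen with earlier results of these data known. Positions and lengths are from GENCODE vM21 (GRCm38), with length the median over the best ranked coding transcripts. Of the 92 genes, 25 overlap exons of another gene on the opposite strand and 4 on the same strand. Near-identical copies share at least 95% identity over 50% of the transcript. Named genes are the 2 with the largest called change per complex class and comparison without overlap of groups, the 2 most abundant of each class, all complex II subunits and all isoform pairs. 1 gene that this rule names is not reported here.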

Additional observations from a re-analysis of the deposited data

Results flagged for a closer look

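The change from sham differed between 2 of the times. By edgeR's direct test of day 7 against day 3, 37 of the 92 respiration genes were lower on day 7 (3.22% of all genes). They were called at an adjusted p under 0.05, and the median log2 difference of the 92 genes was -1.66. The count was 0 without either day 7 library, 1 without replicate 1 of day 3, 21 without replicate 2 of day 3, 22 without replicate 1 of day 21, and 4 with the length trend as an offset. In each of these runs fewer of all genes were called as well, and with the length trend 1.8% of all genes were lower. Fibroblast markers took 0.814% to 2.55% of counts on day 3 and 8.81% to 20.6% on day 7. Their part in the difference was not tested. With 2 libraries a group, no library could be tested for standing apart from its group.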

How the results depend on the processing

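No called change of a named gene reversed under any alternative run. Of 138 called changes of the 45 named genes, 138 were kept under DESeq2 size factors, by DESeq2, without a filter and with the replicate block, 132 with plain totals, 120 with only the 2 groups compared, 116 with the length trend, and 101 to 136 with 1 library left out. Counts of changed respiration genes moved by over 1.5 times as follows. Day 1 (51): 20 with only the 2 groups compared. Day 3 (14): 9 with plain totals, 25 by DESeq2, 29 with the replicate block and 25 with the length trend. Day 3 against day 1 (0): 9 by DESeq2 and 7 with the block, where 1426 and 1313 of all genes were called. Day 7 against day 3 (37): 58 with plain totals, 56 by DESeq2, 56 with the block and 4 with the length trend. Day 21 against day 7 (0): 1 with the block. The cause was not tested. Leave-one-out counts ranged from 18 to 52 on day 1, 2 to 25 on day 3, 55 to 75 on day 7, 51 to 74 on day 21 and 27 to 62 on day 60. They ranged from 0 to 11 for day 3 against day 1, 0 to 48 for day 7 against day 3, 0 to 0 for the later neighbours, and 50 to 67 for any difference. In the fits with the lowest counts against sham, and for day 7 against day 3, fewer of all genes were called as well. Where 1 library of a group was left, it was assumed to vary like the other groups. Plain totals moved the median of all genes from 0.06 to 0.31 on day 1, from 0.16 to 0.40 on day 3 and from 0.13 to -0.13 on day 7, while the respiration median stood at -1.16, -0.51 and -2.64. Within replicate 1 and replicate 2 alone, the medians were -1.96 and -0.99 on day 1 and -2.50 and -2.19 on day 7. By prefix alone, 6 genes begin with Sdh and 17 with Atp5. Genes of low count, such as Cox7b2, are limited by the depth of replicate 1.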
